A study of Mus musculus with 6 samples.

Results

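The genes described here are the 9 that encode the pore-forming subunits of AMPA receptors (Gria1, Gria2, Gria3 and Gria4) and kainate receptors (Grik1, Grik2, Grik3, Grik4 and Grik5), out of 21887 protein-coding genes in the annotation. Their binding by estrogen receptor alpha (ERα) was read from CUT&RUN peak lists, an assay in which an antibody directs a nuclease to cut out the DNA around a protein. A peak was taken to belong to one of the genes if it lay inside the gene span, or within 100 kb of it with that gene as the nearest protein-coding gene. By this rule 131 of the 82442 peaks in 6 lists belonged to the 9 genes, 64 to AMPA and 67 to kainate receptor genes. The estradiol libraries (3) came from male C57/BL6 mice whose nuclei were isolated 4 hours after a subcutaneous dose of 5 µg estradiol benzoate, and the vehicle libraries (3) from males given corn oil alone. All animals were adult males whose gonads had been removed at 10 to 12 weeks of age, 3 weeks before treatment, and the nuclei came from limbic brain tissue. The labels of replicate 3 in both groups are shorter, giving the tissue as brain with the limbic system as its source, and leave out the strain tag. It is not stated that each library is a separate animal, and p-values here measure only library-to-library spread, part or all of which may be technical.

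AMPA receptors carry most fast excitatory transmission in the brain, and the mix of their subunits sets how much calcium they pass and how they are moved in and out of the synapse. Kainate receptors act both at the postsynaptic side and at axon terminals, where they tune transmitter release. Grik1, Grik2 and Grik3 encode subunits that can form channels by themselves, whereas the products of Grik4 and Grik5 work only together with one of those. ERα is a hormone-activated transcription factor that binds DNA mainly at estrogen response elements, often far from gene starts.

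The lists differed in length, with 11082, 14123 and 17558 peaks in estradiol replicates 1, 2 and 3 and 5421, 13717 and 20541 in vehicle replicates 1, 2 and 3. In every list the median peak stood on an estimated 6 fragments at its summit and the smallest on 4, so binding can be missed where no peak was listed. Peaks near the ends of neuronal marker genes were found at 1, 4 and 3 of 6 genes in the estradiol lists and at 1, 2 and 4 of 6 in the vehicle lists. Oligodendrocyte markers had them at 0, 0 and 0 of 6 genes in the estradiol lists and at 0, 1 and 3 of 6 in the vehicle lists, and the part of this in the results was not tested. Astrocyte markers had them at 0, 2 and 1 of 6 genes with estradiol and at 1, 2 and 1 of 6 with vehicle, and microglial and endothelial markers at 0 of 5 in every list. Such peaks show occupancy and not which cells were present.

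Summed, the 9 genes held a larger share of each estradiol list than of any vehicle list. Their number of peaks overlapped between the groups, and the 9 genes did not all differ in the same direction. Together they had 21, 24 and 31 peaks in estradiol replicates 1, 2 and 3, against 6, 19 and 30 in vehicle replicates 1, 2 and 3. The group means were 25.3 ± 5.13 peaks with estradiol and 18.3 ± 12.0 with vehicle (SD, n = 3 each, difference 7, two-sided exact permutation p = 0.4). Without vehicle replicate 1, the shortest list, that difference was 0.833, and 0.667 once lists were cut to equal length. Per 1000 peaks of the list the genes had 1.89, 1.70 and 1.77 peaks in the estradiol libraries and 1.11, 1.39 and 1.46 in the vehicle libraries, so the groups did not overlap. The difference was 0.469 per 1000 (means 1.79 ± 0.0995 and 1.32 ± 0.186, SD, n = 3 each, two-sided exact permutation p = 0.1), and 3 libraries against 3 cannot give a smaller p. It was 0.551 within replicates 1 and 2 and 0.305 in replicate 3. Counting error alone is wide at these numbers, for instance 1.17 to 2.90 per 1000 in estradiol replicate 1 and 0.406 to 2.41 in vehicle replicate 1 (exact 95% binomial intervals). For the other protein-coding genes with spans between those of the shortest and the longest member, the share was 288 to 310 per 1000 in the estradiol lists and 259 to 312 in the vehicle lists, which overlapped. The members' peaks came to 0.601% ± 0.0490 of those genes' peaks with estradiol and 0.458% ± 0.0271 with vehicle (SD, n = 3 each, exact permutation p = 0.1).

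**Figure D1:**
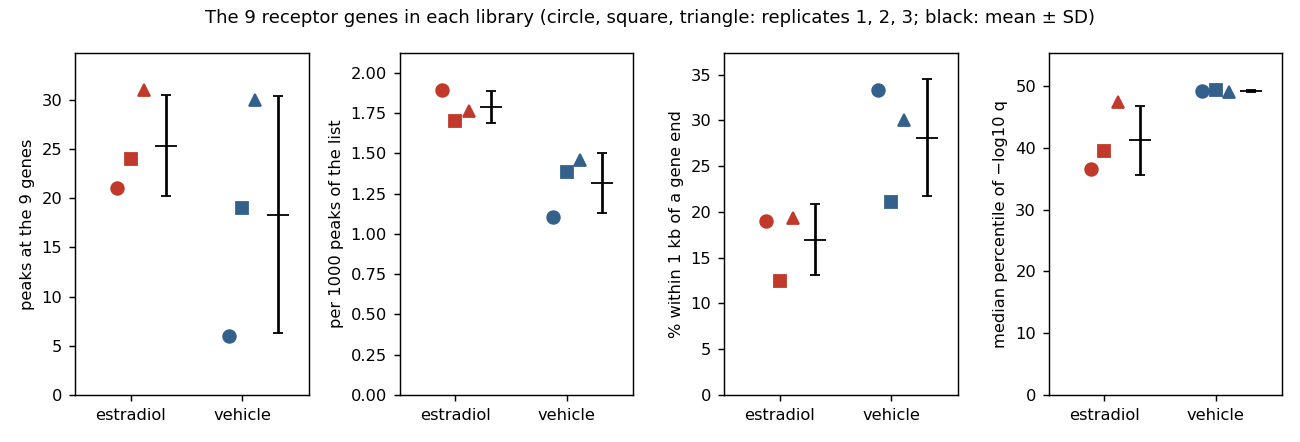
The 4 panels give, for each library, the number of peaks at the 9 genes, the same per 1000 peaks of the list, the percent within 1 kb of a gene end, and the median percentile of −log10 q; black bars are the mean ± SD of 3 libraries. The number of peaks overlaps between the groups (21 to 31 with estradiol, 6 to 30 with vehicle), and the other 3 measures do not, although with lists of equal length they no longer separate (exact permutation p of 0.3 to 1).

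Most of the difference in share came from peaks outside the gene spans. Inside the gene spans there were 14, 16 and 22 peaks in the estradiol libraries and 6, 16 and 25 in the vehicle libraries, or 1.22 ± 0.0725 and 1.16 ± 0.0552 per 1000 (SD, n = 3 each). Outside them, within 100 kb, there were 7, 8 and 9 peaks with estradiol and 0, 3 and 5 with vehicle, or 0.570 ± 0.0596 and 0.154 ± 0.134 per 1000. With peaks inside the spans only, the difference in share was 0.0530 per 1000 (exact permutation p = 0.3). With every list shortened to its 5421 highest peaks it was 0.123 (exact permutation p = 1). This division into inside and outside was looked at after the values were known, and the outside values were not tested. For the other genes of the members' range of spans, peaks outside the gene were 82.2 to 83.1 per 1000 in the estradiol lists and 82.8 to 87.4 in the vehicle lists.

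Gria1, which encodes the GluA1 subunit whose insertion into synapses follows potentiation, had the most peaks. It had 9, 7 and 7 in estradiol replicates 1, 2 and 3 and 2, 6 and 10 in vehicle replicates 1, 2 and 3. The groups overlapped, with a mean of 0.569 ± 0.216 per 1000 with estradiol and 0.431 ± 0.0592 with vehicle (SD, n = 3 each, exact permutation p = 0.4). The difference of 0.138 was 0.251 within replicates 1 and 2 and -0.0882 in replicate 3, and 0.0161 without estradiol replicate 1. The gene spans 319 kb of chromosome 11 (mm10, 57011571 to 57330244). Its 41 peaks over the 6 lists put it at the 99.8 percentile of genes in the members' range of spans, whose median span is only 118 kb. A place with a peak in several lists counts once per list in this number.

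Both regions of Gria1 found in all 6 libraries lay at its end of lower coordinates. The stronger one (chr11:57011698-57011865) began 0.127 kb inside that end and had a −log10 q of 28.3, 26.0 and 23.2 in estradiol replicates 1, 2 and 3. In vehicle replicates 1, 2 and 3 it was 13.2, 19.4 and 26.1. The summits held 33, 28 and 34 fragments with estradiol and 19, 24 and 36 with vehicle. The second (chr11:57011535-57011606) lay across the end itself, with 14, 13 and 19 summit fragments with estradiol and 12, 14 and 22 with vehicle. A further region 0.662 kb outside the gene had peaks in replicate 3 of both groups, with 14 fragments in the estradiol and 27 in the vehicle library. This stretch thus had peaks with and without injected hormone. Heights are the authors' own values within each list, and no test of height was made between groups.

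Farther out, 72.7 kb beyond the end of higher coordinates, a Gria1 region (chr11:57402916-57403231) had peaks in estradiol replicates 2 and 3 (−log10 q 9.57 and 6.59, 11 and 9 fragments) and in no vehicle library. Vehicle replicate 2 had a separate peak at chr11:57401751-57401806, with a −log10 q of 3.87, on the near side of it. Another region, 38.6 kb below the gene, was held by estradiol replicates 1 and 3 alone. It was much weaker, with a −log10 q of 2.94 and 2.21 from 4 fragments in each, the smallest number in any list.

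**Figure D2:**
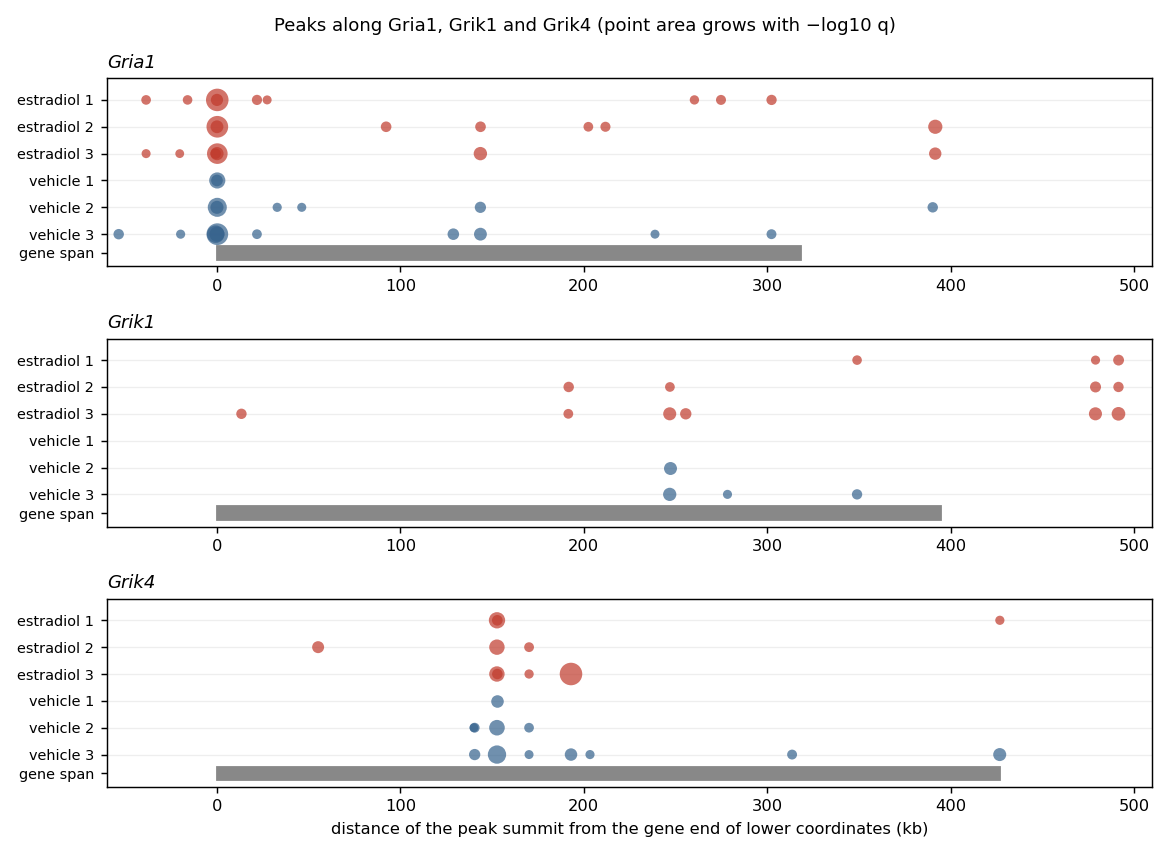
Peaks along Gria1, Grik1 and Grik4 in each library (rows), placed by the distance of the summit from the gene end of lower coordinates in kb; the grey bar is the gene span and the point area grows with −log10 q. All 6 libraries have peaks at 0 kb in Gria1 and at about 152 kb in Grik4, and the 3 estradiol libraries alone have the pair of peaks right of Grik1.

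Gria2 encodes GluA2, the subunit whose edited form keeps AMPA channels nearly closed to calcium. It had 1, 2 and 2 peaks in the estradiol libraries and 0, 1 and 0 in the vehicle libraries. Per 1000 peaks that is 0.115 ± 0.0257 with estradiol and 0.0243 ± 0.0421 with vehicle, without overlap (SD, n = 3 each, exact permutation p = 0.1), with a difference of 0.0795 within replicates 1 and 2 and 0.114 in replicate 3. It was 0.0380 inside the span alone. These 6 peaks fell in 6 separate regions, each in 1 library, and 4 of the 6 lay outside the gene. The highest, 19.3 kb below the gene (chr3:80662062-80662120), had a −log10 q of 6.01 in estradiol replicate 1. Gria3, the X-linked AMPA subunit gene, had 1, 0 and 1 peaks with estradiol and 0, 1 and 2 with vehicle. Its region across the end of lower coordinates (chrX:41400747-41400844) was held by estradiol replicate 3 and vehicle replicates 2 and 3, with 8, 7 and 7 fragments.

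Gria4 encodes an AMPA subunit with fast gating that is common in interneurons. It had 2, 1 and 3 peaks with estradiol and 1, 2 and 3 with vehicle, so the groups overlapped. Its span on chromosome 9 runs from 4417893 to 4796234, on the minus strand. A region 0.558 kb downstream of the annotated start (chr9:4795571-4795676) had peaks in estradiol replicate 3 (−log10 q 7.20) and vehicle replicates 2 and 3 (9.56 and 14.5). A region across the start itself (chr9:4796154-4796293) was held by estradiol replicates 2 and 3 (4.69 and 3.86) and vehicle replicate 3 (4.07). The Gria4 region held by the most libraries lay deep in the gene (chr9:4514377-4514683, reaching into the non-coding RNA gene Gm46101), with 4.10 and 2.15 in estradiol replicates 1 and 3 and 2.79 and 6.65 in vehicle replicates 1 and 2. Each of these 3 regions thus had peaks in both groups. The 250 bases before the start are shown because, among the 6 members with an entry in the RefSeq promoter table (GRCm38.p6), Gria4 was the one whose promoter window carried a peak. It is read on the minus strand (chr9:4796235-4796484), and capitals mark the 59 bases under that region's peaks.
Gria4 promoter: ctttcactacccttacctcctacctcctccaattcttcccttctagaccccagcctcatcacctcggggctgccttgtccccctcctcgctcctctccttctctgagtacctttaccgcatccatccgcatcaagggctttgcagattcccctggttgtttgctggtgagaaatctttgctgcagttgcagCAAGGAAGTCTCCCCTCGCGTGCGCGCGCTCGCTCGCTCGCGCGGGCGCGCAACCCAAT
In windows from 250 bases before to 50 after the start, 1 of these 6 members had a peak in any library, against 33.3% of the 21263 windows of protein-coding genes. None of the 6 had a peak in all 6 libraries, against 9.49% of the windows. Gria1, Gria3 and Grik1 had no entry in the promoter table and are not in these counts. The Gria1 end with regions in all 6 libraries was therefore not among the windows, nor was the Gria3 end with a region. The full estrogen response element GGTCANNNTGACC was in 0 of the 6 windows and in 0.0517% of all windows. A single arm of it, GGTCA or TGACC on either strand, was in 1 of the 6 (Grik2, with no peak in the window) and in 39.4% of all windows. These matches describe the letters of the windows only.

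**Figure D3:**
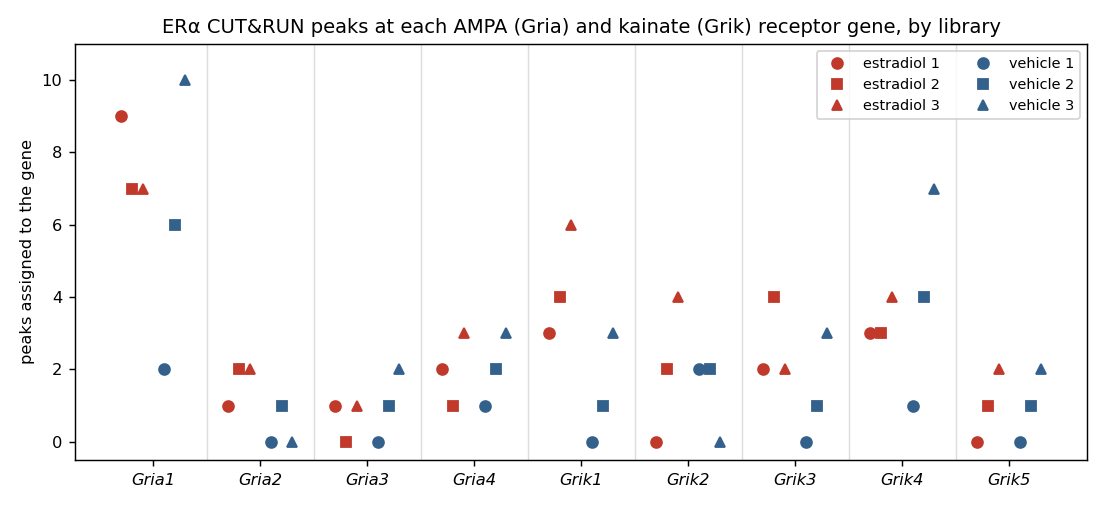
Number of peaks assigned to each gene (y axis) in each library; estradiol libraries stand left of vehicle libraries, and the marker shape gives the replicate. Gria1 has the most peaks (2 to 10 per library), and for Grik1 the estradiol libraries have 3, 4 and 6 peaks and the vehicle libraries 0, 1 and 3.

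Grik1, which encodes the GluK1 kainate subunit, held both member regions that met the estradiol-only rule (a peak in 3 of 3 estradiol lists and 0 of 3 vehicle lists). The gene had 3, 4 and 6 peaks in estradiol replicates 1, 2 and 3 and 0, 1 and 3 in vehicle replicates 1, 2 and 3. Per 1000 peaks this was 0.299 ± 0.0379 with estradiol and 0.0730 ± 0.0730 with vehicle, without overlap (SD, n = 3 each, exact permutation p = 0.1). The difference was 0.241 within replicates 1 and 2 and 0.196 in replicate 3. It was 0.0802 inside the span alone and 0.0615 with lists of equal length.

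Both regions lay on chromosome 16 beyond the end of higher coordinates (gene span 87895901 to 88290863). The nearer one (chr16:88374749-88375002), 83.9 kb away, had a −log10 q of 2.32, 4.64 and 7.67 in estradiol replicates 1, 2 and 3, from 4, 6 and 8 summit fragments. It lay inside the span of the long non-coding RNA gene Gm33255. The farther one (chr16:88387319-88387544), 96.5 kb away, had 4.42, 3.76 and 8.63, from 6, 6 and 9 fragments. On that side the next protein-coding gene, Cldn17, begins 215 kb from Grik1. Within their lists these peaks ranked at percentiles of 6.64 to 76.2 for the nearer region and 33.5 to 80.0 for the farther one. At a −log10 q of at least 3 only the farther region was left, and with lists of equal length neither was. When a library had to cover 50% of a region to hold it, neither met the rule.

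The remaining Grik1 peaks lay inside the gene. A region at chr16:88142682-88142877 was held by estradiol replicates 2 and 3 (−log10 q 3.01 and 7.65) and vehicle replicates 2 and 3 (7.53 and 8.0). It was thus found as often without as with estradiol.

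Over the 9 genes the peaks formed 73 regions, and most were seen once. A single library held 47 of them (64.4%), against 58.9% of the 39374 regions of the series, 27 in an estradiol and 20 in a vehicle library. The 2 estradiol-only regions, both at Grik1, are 2.74% of 73 (exact 95% interval 0.334 to 9.55), against 0.737% of all regions, a share inside that interval. The exact intervals of this paragraph count regions as independent. Regions of the same gene and the same 6 lists are not, so these intervals cannot serve as a test. No member region was vehicle-only (0 of 73, exact 95% upper limit 4.93%), against 0.112% of all regions. Without vehicle replicate 1 there were 2 estradiol-only and 1 vehicle-only member regions, against 0.792% and 2.29% of all regions. All 6 libraries held 3 regions (4.11%, 0.856 to 11.5), against 7.27%. When 2 of 3 libraries sufficed there were 6 regions with estradiol alone and 1 with vehicle alone, against 3.71% and 2.60% of all regions. Of the 6, the Grik2 region (chr10:49785031-49785098) lay close beside a separate vehicle replicate 1 peak. The Grik4 region among them (chr9:42670999-42671074) lay close beside a region that all 6 libraries held. Peaks that did not touch counted as separate regions here. No test was made of single regions, since 3 libraries against 3 cannot reach 0.05.

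Grik2 encodes GluK2, a main subunit of kainate receptors in forebrain, and is the longest of the 9 genes at 696 kb. It had 0, 2 and 4 peaks with estradiol and 2, 2 and 0 with vehicle. No region of it was held by more than 2 libraries. Among these, chr10:49716945-49717052 was held by estradiol replicate 2 (−log10 q 6.15) and vehicle replicate 2 (3.35). Another (chr10:49785031-49785098), 3.66 kb downstream of the table's start, was held by estradiol replicates 2 and 3 alone (−log10 q 2.55 and 7.97). Vehicle replicate 1 had a separate peak close beside it (chr10:49784979-49785004, −log10 q 2.03).

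Grik3 encodes the GluK3 subunit, of low glutamate affinity. It had 2, 4 and 2 peaks with estradiol and 0, 1 and 3 with vehicle. Its region 10.97 kb inside the end of higher coordinates (chr4:125703050-125703200) was held by 5 of 6 libraries, with a −log10 q of 11.04, 5.45 and 6.36 in estradiol replicates 1, 2 and 3 and 4.83 and 6.98 in vehicle replicates 2 and 3. A region 17.5 kb beyond that end (chr4:125731643-125731723) had 4.47 and 5.45 in estradiol replicates 2 and 3 and 12.3 in vehicle replicate 3. Both groups thus had peaks at both places.

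Grik4 and Grik5 encode the high-affinity subunits. Grik4 had 3, 3 and 4 peaks with estradiol and 1, 4 and 7 with vehicle, all of them assigned inside its 427 kb span or across its end. Its region at chr9:42670681-42670913, deep in the gene at 152 kb from the nearer end, was held by all 6 libraries. Its peaks reached a −log10 q of 13.5, 11.8 and 11.8 in estradiol replicates 1, 2 and 3, against 6.88, 12.1 and 17.8 in vehicle replicates 1, 2 and 3. The highest −log10 q of any member stood at chr9:42711138-42711235 in estradiol replicate 3 (28.4, 22 fragments). The same place had 6.77 in vehicle replicate 3 and no peak in the other 4 libraries. A region at chr9:42658660-42658739, in vehicle replicates 2 and 3 alone, was the one that met the reverse rule of 2 libraries. Grik5, the shortest gene at 65.8 kb, had 0, 1 and 2 peaks with estradiol and 0, 1 and 2 with vehicle. Its region at chr7:25068886-25068997 was held by replicates 2 and 3 of both groups, with a −log10 q of 2.93 and 3.68 with estradiol and 10.9 and 2.18 with vehicle.

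**Figure D4:**
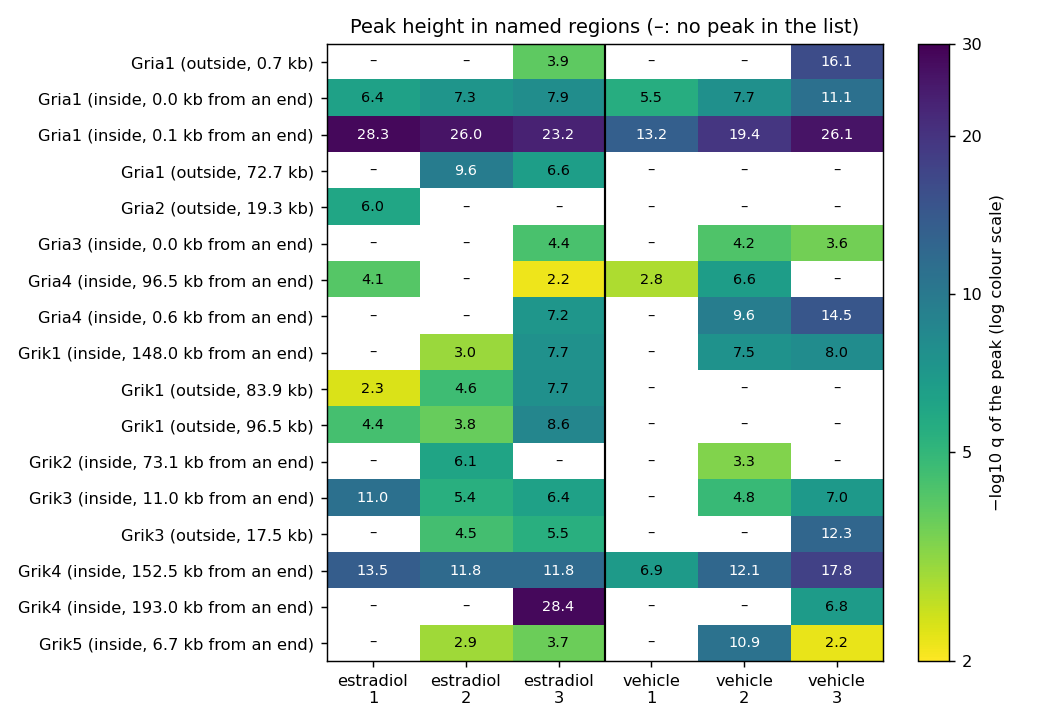
The −log10 q of the highest peak of each library (columns) in the 17 regions chosen by the naming rule (rows, with the distance to the nearer gene end in kb); a dash means no peak in that list. Gria1 at its end and Grik4 in its interior are filled in all 6 columns, and the 2 outside regions of Grik1 in the 3 estradiol columns alone.

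Gene length bears on these counts. The spans ran from 65.8 to 696 kb, against a median of 17.2 kb over protein-coding genes, and 8 of the 9 exceeded 100 kb. All 9 had at least 1 peak, as had 89.0% of genes with spans in that range and 61.7% of all protein-coding genes. The median span was 319 kb for the members and 118 kb for the genes in that range. Counts and percentages set against that range are thus not matched for length. Inside the span the members held a median of 0.464 peaks per 100 kb and library, against 0.389 for the 3679 protein-coding genes in that range, members included (quartiles 0.137 and 0.824). Gria1 (1.57) and Grik5 (1.52) were the densest, at the 93.3 and 92.8 percentile of those genes. Gria3 (0.12), Grik2 (0.215) and Gria2 (0.271) were the sparsest. Over the 9 genes the number of peaks followed the span only loosely (Pearson r 0.21, Spearman rho 0.50, n = 9 genes read from the same libraries). The room for outside peaks also differed, since close neighbours left Grik5 1.89 and 5.83 kb and Grik2 100 kb on each side.

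**Figure D5:**
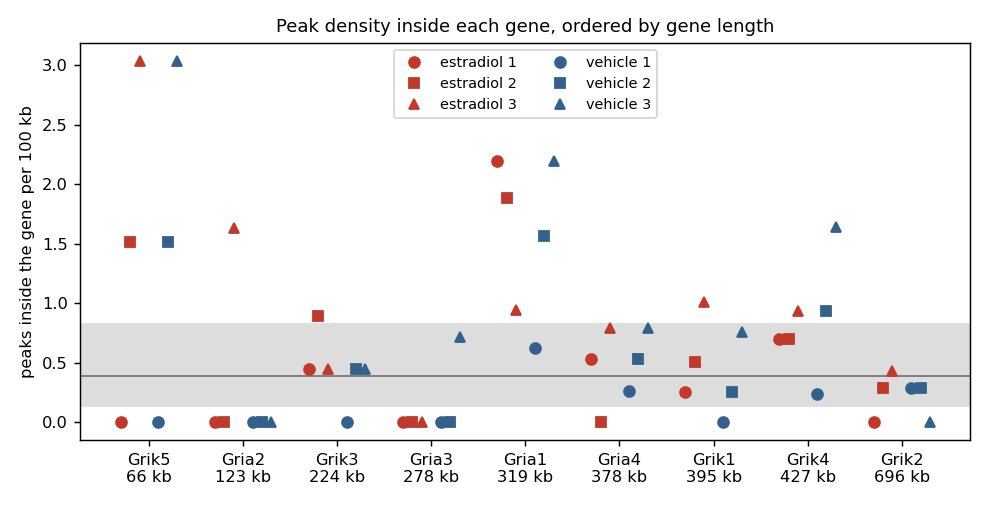
Peaks inside each gene per 100 kb of its span (y axis) in each library, with genes ordered by length; the grey line and band are the median (0.389) and quartiles over 3679 protein-coding genes with spans in the members' range. Grik5 and Gria1 lie highest, and Grik2, the longest gene, has 0 to 0.431 in every library.

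The position and the rank of the members' peaks separated the groups in the full lists but not in lists of equal length. Within 1 kb of either end of a member lay 19.0%, 12.5% and 19.4% of the members' peaks in estradiol replicates 1, 2 and 3 and 33.3%, 21.1% and 30.0% in vehicle replicates 1, 2 and 3. Those shares rest on 4, 3 and 6 peaks with estradiol and 2, 4 and 9 with vehicle. Both Gria1 regions found in all 6 libraries gave 1 of these peaks in every list, and in vehicle replicate 1 there were no others. The percent therefore also moves with the number of other member peaks in a list. The groups did not overlap, at 17.0% ± 3.87 and 28.1% ± 6.35 (SD, n = 3 each, difference -11.2 percentage points, exact permutation p = 0.1), and the difference was -11.4 within replicates 1 and 2 and -10.6 in replicate 3. With lists of equal length it was -13.5 (exact permutation p = 0.3). For the other genes in the members' range of spans the share near ends was 24.9%, 23.6% and 17.7% with estradiol and 33.6%, 24.0% and 19.9% with vehicle. Relative to those genes the members stood at -5.12 percentage points with estradiol and 2.30 with vehicle (exact permutation p = 0.3). The median percentile rank of the members' peaks within their list was 36.6, 39.5 and 47.4 with estradiol and 49.1, 49.4 and 49.1 with vehicle. The group means differed by -8.0 (exact permutation p = 0.1), but ranks in lists of unequal length do not show a change, and with lists of equal length the difference was -5.58 (exact permutation p = 0.8). It was -11.2 within replicates 1 and 2, -1.66 in replicate 3 and -1.56 when peaks up to 500 kb away were taken. The other genes in that range had median ranks of 42.0 to 43.9 with estradiol and 41.0 to 43.5 with vehicle.

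By gene, every estradiol library was above every vehicle library per 1000 peaks for 2 of the 9 genes (Gria2 and Grik1), against 2.97% of all genes with a peak and 3.48% of those with a span in the members' range. The reverse held for 0 of 9, against 2.04% and 3.05%. For Gria2 and Grik1 the separation was lost inside the spans alone (exact permutation p = 1 and 0.3), with lists of equal length (p = 1 for both) and among peaks with −log10 q of 3 or more (p = 0.3 and 0.2). For the other 7 genes the groups overlapped, with exact permutation p of 0.2 to 1. The AMPA genes together had 0.874 ± 0.260 per 1000 with estradiol and 0.671 ± 0.102 with vehicle (SD, n = 3 each, exact permutation p = 0.4), and the kainate genes 0.913 ± 0.166 with estradiol and 0.647 ± 0.0888 with vehicle (p = 0.2). The AMPA difference was 0.299 within replicates 1 and 2 and 0.0102 in replicate 3, and the kainate difference 0.252 and 0.295.

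The other receptor families give the comparison. Of the peaks at the members and at the 9 NMDA and delta receptor genes, the members held 65.7% ± 10.5 with estradiol and 54.4% ± 12.6 with vehicle (SD, n = 3 each, exact permutation p = 0.5). Set against 19 GABA-A receptor genes the share was 63.1% ± 8.64 with estradiol and 56.4% ± 2.19 with vehicle (exact permutation p = 0.3). In both comparisons the groups overlapped. The difference against NMDA and delta genes, 11.3 points, was 4.03 without vehicle replicate 1 and 5.22 without estradiol replicate 1. Within replicates 1 and 2 the differences were 16.5 points against NMDA and delta genes and 11.8 against GABA-A genes, and in replicate 3 they were 0.784 and -3.47. An estradiol-only region was found at 1 of 9 members (Grik1), 1 of 9 NMDA and delta genes (Grin2b) and 1 of 19 GABA-A genes (Gabrg3), against 3.26% of genes in the members' range of spans and 1.10% of all. The regions of Grin2b and Gabrg3 lay inside their genes, unlike those of Grik1.

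Among partners of these receptors, 12 of 15 genes for AMPA auxiliary subunits (such as Cacng2, which encodes stargazin) had a peak, as had both kainate auxiliary genes (Neto1 and Neto2) and 9 of 12 scaffold and trafficking genes, against 61.7% of all genes and 89.0% of those in the members' range of spans. None of these genes had an estradiol-only or vehicle-only region, and 0 of 9 members had a vehicle-only one, against 0.201% of all genes and 0.435% of those in the members' range of spans. A region in all 6 libraries was found at Neto1, Dlg2 and Dlg4, the last of which encodes the scaffold PSD-95, and at 2 of 9 members (Gria1 and Grik4), against 13.4% of all genes and 15.7% of those in the members' range of spans. Of 1970 other genes with at least 10 peaks, those whose peaks were divided over the 6 lists most like the members' were Opcml, Mrtfb, Slit1, Nav2 and Timp2, by Euclidean distance between shares over 6 libraries (0.0331 to 0.0407).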

How the data were processed

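The 6 deposited peak lists, 1 per CUT&RUN library, are on mm10. Among the tools in the submitters' processing notes are MACS2 (peak calling software), Bowtie2, cutadapt, SAMtools, Picard and deepTools, with no version or role. The sources used here do not say if a control library was used for calling, nor what the 25 in the peak names means; those names also state q 0.01. The deposited columns hold, for each peak, the authors' score (the −log10 q times 10, rounded down), the fold enrichment, the −log10 of the p-value and of the q-value, and the summit. Replicates 3 have shorter labels and another style of peak names. They were set apart as a batch in the splits by replicate, but the main tests did not take this into account. Summit fragments were estimated here from the fold and −log10 p, assuming a pseudocount of 1 and a Poisson tail; a whole number matched within 0.0005 for all but 2 peaks of estradiol replicate 3 and 1 of vehicle replicate 3.

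Genes are RefSeq spans of GRCm38.p6, which shares its coordinates with mm10, and promoter sequences are RefSeq's; 6 of 9 members matched. Strand came from that promoter table. Exons were not used here. Overlapping or touching peaks were merged into regions. Estradiol-only means a peak in 3 of 3 estradiol and 0 of 3 vehicle lists. Group values were tested over libraries with exact permutation tests, two-sided (smallest p 0.1), with no adjustment across the 9 genes. Named regions were those held by all libraries of 1 group and none of the other, those in all 6, the most widely held of each gene, and the 5 highest others. Members and lists were chosen with earlier results of these data known. Assignment, merging, tests and fragment estimates were tested on simulated data. Python 3.11.15, pandas 2.3.3 and scipy 1.17.1 were used. Alternatives were a −log10 q of at least 3, gene span or 500 kb, summits, lists of equal length and left-out libraries. Others were batches (replicates 1 and 2, replicate 3), merging within 500 bp, 50% cover and a replicate block. For peak measures the replicate block gives the group difference again, so it cannot change a direction. Summits gave the same values as the main assignment.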

Additional observations from a re-analysis of the deposited data

How the results depend on the processing

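With 3 libraries against 3 no test here could pass 0.05, so a kept direction says little about stability. Member peak number, share of the list, share near ends and median rank kept their direction in 14 of 14 alternatives. The share against NMDA and delta genes did in 10 of 10. In both, the replicate block could not change direction. Leaving out each library gave differences of 0.833 to 12.8 peaks, 0.364 to 0.541 per 1000, -14.7 to -8.56 percentage points near ends and -11.1 to -5.71 in rank. The difference in number was 0.833 without vehicle replicate 1, 12.8 without vehicle replicate 3 and 4.17 without estradiol replicate 3. It was 0.667 with lists of equal length, 1 in replicate 3 and 1.67 with the gene span only. At a −log10 q of at least 3 the difference near ends was -25.0 and in rank -15.1 (exact permutation p of 0.1 and 0.3). The difference in share of the list was 0.416 per 1000 there (exact permutation p = 0.2). At that cutoff the groups thus overlapped in rank and in share of the list. With lists of equal length neither the share near ends nor the rank separated the groups (exact permutation p of 0.3 and 0.8). The share against NMDA and delta genes was 4.03 to 15.7 over left-out libraries, 4.54 with lists of equal length and 4.86 with the gene span only. The share against GABA-A genes turned to -6.31 at a −log10 q of at least 3, -1.42 with the gene span only and -8.65 with lists of equal length, and was 2.03 to 10.6 over left-out libraries; the cause was not tested.

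The count of estradiol-only member regions was 1 at a −log10 q of at least 3, 0 with the gene span only (both regions lie outside), 0 with lists of equal length and 0 with 50% cover. It was 6 when 2 of 3 libraries sufficed, where the vehicle-only count was 1. Over left-out libraries it was 2 to 4 (4 without estradiol replicate 1 or 2), and the vehicle-only count 0 to 1 (1 without vehicle replicate 1). In replicate 3, with 1 library per group, there were 17 estradiol-only, 16 vehicle-only and 14 shared regions, since fewer libraries make the rule easier to meet. Regions in all libraries numbered 1 with 50% cover and 3 to 4 over left-out libraries. Among these settings, shares over all regions were counted only for 2 of 3 libraries and without vehicle replicate 1. The other counts have no such share beside them.

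With a replicate block, same-numbered libraries were set against each other. A region differed towards estradiol if 2 or more pairs had an estradiol peak only and 0 pairs a vehicle peak only. There were 6 such member regions, and 1 towards vehicle by the reverse rule. The same counts over all regions of the series were not made, so whether 6 and 1 are unusual cannot be told. The exact paired permutation p (smallest possible 0.25) was 0.25 for the number, share, position and rank of member peaks, 0.75 against NMDA and delta genes and 0.5 against GABA-A genes. Same-numbered libraries deviated together with r of 0.14, 0.012 and 0.17 over 1976 genes, the highest r of each estradiol library. All were low, and estradiol replicate 2 had nearly the same r with vehicle replicate 1 (0.0098). Vehicle replicate 2 correlated best with estradiol replicate 3 (0.076). Pairs were thus left undecided, and the main tests did not use them. Most member peaks stand on few fragments (median 6; 80 of 131 have a −log10 q under 5), which limits what a missing peak can show.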
